A study of Homo sapiens with 8 samples.

Results

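NEAT1, MALAT1 and 8 snoRNA host genes (GAS5, SNHG1, SNHG5, SNHG7, SNHG8, SNHG12, SNHG15 and SNHG16) are lncRNA genes that were picked by name, as abundant nuclear lncRNAs and as lncRNAs that carry small nucleolar RNAs (snoRNAs) in their introns. They are 10 of 38864 protein-coding and lncRNA genes of GENCODE release 44 in GRCh37 coordinates, of which 18702 are lncRNA genes, and each was represented by its longest isoform. RNA polymerase II (RNAPII) was mapped by ChIP-seq with the CTD4H8 antibody in MDA-MB-453, an established human breast cancer cell line. Cells received vehicle or 600 nM of the CDK9 inhibitor CDDD11-8 (labelled D11-8) for 4 h, with 2 replicates of each treatment from separate passages. The comparison asks where along these genes RNAPII was found with and without the CDK9 inhibitor.

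CDK9 is the kinase of P-TEFb, which releases RNAPII from its pause shortly after the start of a gene into elongation. NEAT1 is the scaffold of paraspeckles and MALAT1 a component of nuclear speckles. MALAT1 and the long form of NEAT1 are largely unspliced RNAs whose ends are made by RNase P, which cuts in front of a tRNA-like structure. Those ends are not made by the cleavage and polyadenylation used by most genes. In the host genes the product of best known function is the intronic snoRNA, a guide for the modification of ribosomal RNA, while the spliced host RNA is often unstable.

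The 10 genes ranged in length from SNHG15 (3.92 kb, chr7:45022637-45026560, minus strand) to SNHG16 (113 kb, chr17:74553857-74667067, plus strand). NEAT1 spanned 22.7 kb (chr11:65190269-65213011, plus strand). MALAT1 spanned 10.4 kb (chr11:65265111-65275544, plus strand) and lay downstream of NEAT1 on the same strand. In the RefSeq annotation, GAS5 held 11 snoRNA genes, SNHG1 held 9, SNHG12 held 4, SNHG16 held 3, SNHG5 and SNHG7 held 2 each, and SNHG8 and SNHG15 held 1 each. In NEAT1, SNHG5, SNHG8 and SNHG16 the longest isoform was far longer than the median isoform that starts at the same place. That median isoform spanned 3.54 kb for NEAT1, 1.75 kb for SNHG5, 1.07 kb for SNHG8 and 7.56 kb for SNHG16. The longest isoform of SNHG8 spanned 6.61 kb.

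The sequence just before the start is shown because most of the 10 genes held the same short strings there. In the 50 bases before the commonest annotated start, the one that no other start exceeds in isoforms (for NEAT1, whose isoforms share no start, that of the longest), the letters TATAA or TATAT stood on the transcribed strand in 7 of the 10 genes. These letters were picked after the 10 sequences had been read, so the count describes the genes and tests nothing. The same was true of 7.09% of all 38864 genes, of 3.24% of the 12967 bound genes, meaning those with an RNAPII peak within 300 bp of the start of the longest isoform in all 4 libraries, and of 2.85% of the 3198 lncRNA genes among them. The windows below run 5′ to 3′ from 50 bases before that start to 20 bases after it in GRCh37, with TATAA or TATAT in capitals.
NEAT1, chr11:65190219-65190289, plus strand: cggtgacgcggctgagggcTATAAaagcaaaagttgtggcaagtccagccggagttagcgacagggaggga
MALAT1, chr11:65266466-65266536, plus strand: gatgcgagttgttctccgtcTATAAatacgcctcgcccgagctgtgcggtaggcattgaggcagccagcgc
GAS5, chr1:173837107-173837177, minus strand: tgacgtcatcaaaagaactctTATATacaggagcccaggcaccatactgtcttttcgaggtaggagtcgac
SNHG5, chr6:86388446-86388516, minus strand: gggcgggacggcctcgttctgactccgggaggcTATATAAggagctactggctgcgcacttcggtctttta
SNHG7, chr9:139622616-139622686, minus strand: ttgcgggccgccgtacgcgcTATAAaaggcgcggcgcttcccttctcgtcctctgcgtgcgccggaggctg
SNHG8, chr4:119199863-119199933, plus strand: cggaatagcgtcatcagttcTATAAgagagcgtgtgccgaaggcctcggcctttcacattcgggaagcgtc
SNHG12, chr1:28908365-28908435, minus strand: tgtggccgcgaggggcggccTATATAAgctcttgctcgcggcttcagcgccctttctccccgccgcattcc
The first of these letters lay 29 to 31 bases before the start in GAS5, NEAT1, MALAT1, SNHG7, SNHG8 and SNHG12, and 17 bases before it in SNHG5. In SNHG5 and SNHG12 both strings overlapped. Neither string was found in this window of SNHG1, SNHG15 or SNHG16. The commonest start lay 1405 bp downstream of the start of the longest isoform in MALAT1 and 1113 bp downstream of it in SNHG12, which matters below because distances are measured from the longest isoform.

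NEAT1 and MALAT1 also ended alike. The sequence at the annotated end of NEAT1 and the sequence around the longest run of A in MALAT1 shared a string of 12 bases, given in capitals, which was followed in both by the tRNA-like sequence. These windows are shown because they mark where MALAT1 and the long form of NEAT1 end.
NEAT1, chr11:65212982-65213041, plus strand: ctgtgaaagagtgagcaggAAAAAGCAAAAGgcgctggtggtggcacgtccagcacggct
MALAT1, chr11:65273559-65273618, plus strand: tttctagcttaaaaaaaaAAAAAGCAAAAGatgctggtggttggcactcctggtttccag
In MALAT1 this point lay 8.48 kb after the start of the longest isoform and 1956 bp before its annotated end. The 3 kb after it were covered by RNAPII peaks to 100% in all 4 libraries, and so were the 3 kb after the same point in NEAT1.

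The deposited data were 4 lists of RNAPII peaks, 1 for each library, with pileup, fold enrichment over local background and q-value for every summit. Vehicle lists held 78306 and 57493 peaks, and CDDD11-8 lists 25897 and 21842. Promoter peaks marked all 8 luminal breast genes that were checked, among them GATA3 and FOXA1, in every library, and none of 5 genes of blood, muscle or liver. The lists hold no read totals, and list length moves with treatment, so each count below is given beside the same count over all bound genes, called all genes from here on. A value is called lower (or higher) with CDDD11-8 where both CDDD11-8 libraries lay below (or above) both vehicle libraries. With 2 libraries against 2 the exact two-sided permutation test has 6 splits and a smallest p of 0.33, which is the p of every such difference below. No single difference can therefore reach 0.05, and results are given as levels, counts and ranges. In bulk chromatin, fewer cells with RNAPII at a site and less RNAPII per cell cannot be told apart.

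All 10 genes had an RNAPII peak within 300 bp of the transcription start site (TSS) in all 4 libraries, against 33.4% of the 38864 annotated genes and 17.1% of the 18702 lncRNA genes among them. In 8 of the 10 genes a summit also lay inside that window in every library. The exceptions were SNHG12 and SNHG15, whose strongest summit near the 5′ end lay 1143 to 1188 bp and 270 to 322 bp after the TSS of the longest isoform, close to their commonest start, which 4 of 19 isoforms use in SNHG12 and 2 of 14 in SNHG15. The strongest summit near the 5′ end of MALAT1 likewise lay 1313 to 1817 bp after the TSS of its longest isoform.

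The RNAPII domains over these genes were far wider than usual. In vehicle the median width of the promoter peak over the 10 genes was 13762 bp in replicate 1 and 13816 bp in replicate 2. Over the 12967 bound genes the median was 3137 and 3230 bp. NEAT1 had the widest, with 36217 and 32220 bp in vehicle, and SNHG15 the narrowest, with 8560 and 7507 bp. NEAT1 also had the most summits in its promoter peak, 54 and 45, against a median of 4 over all genes in both libraries.

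**Figure D1:**
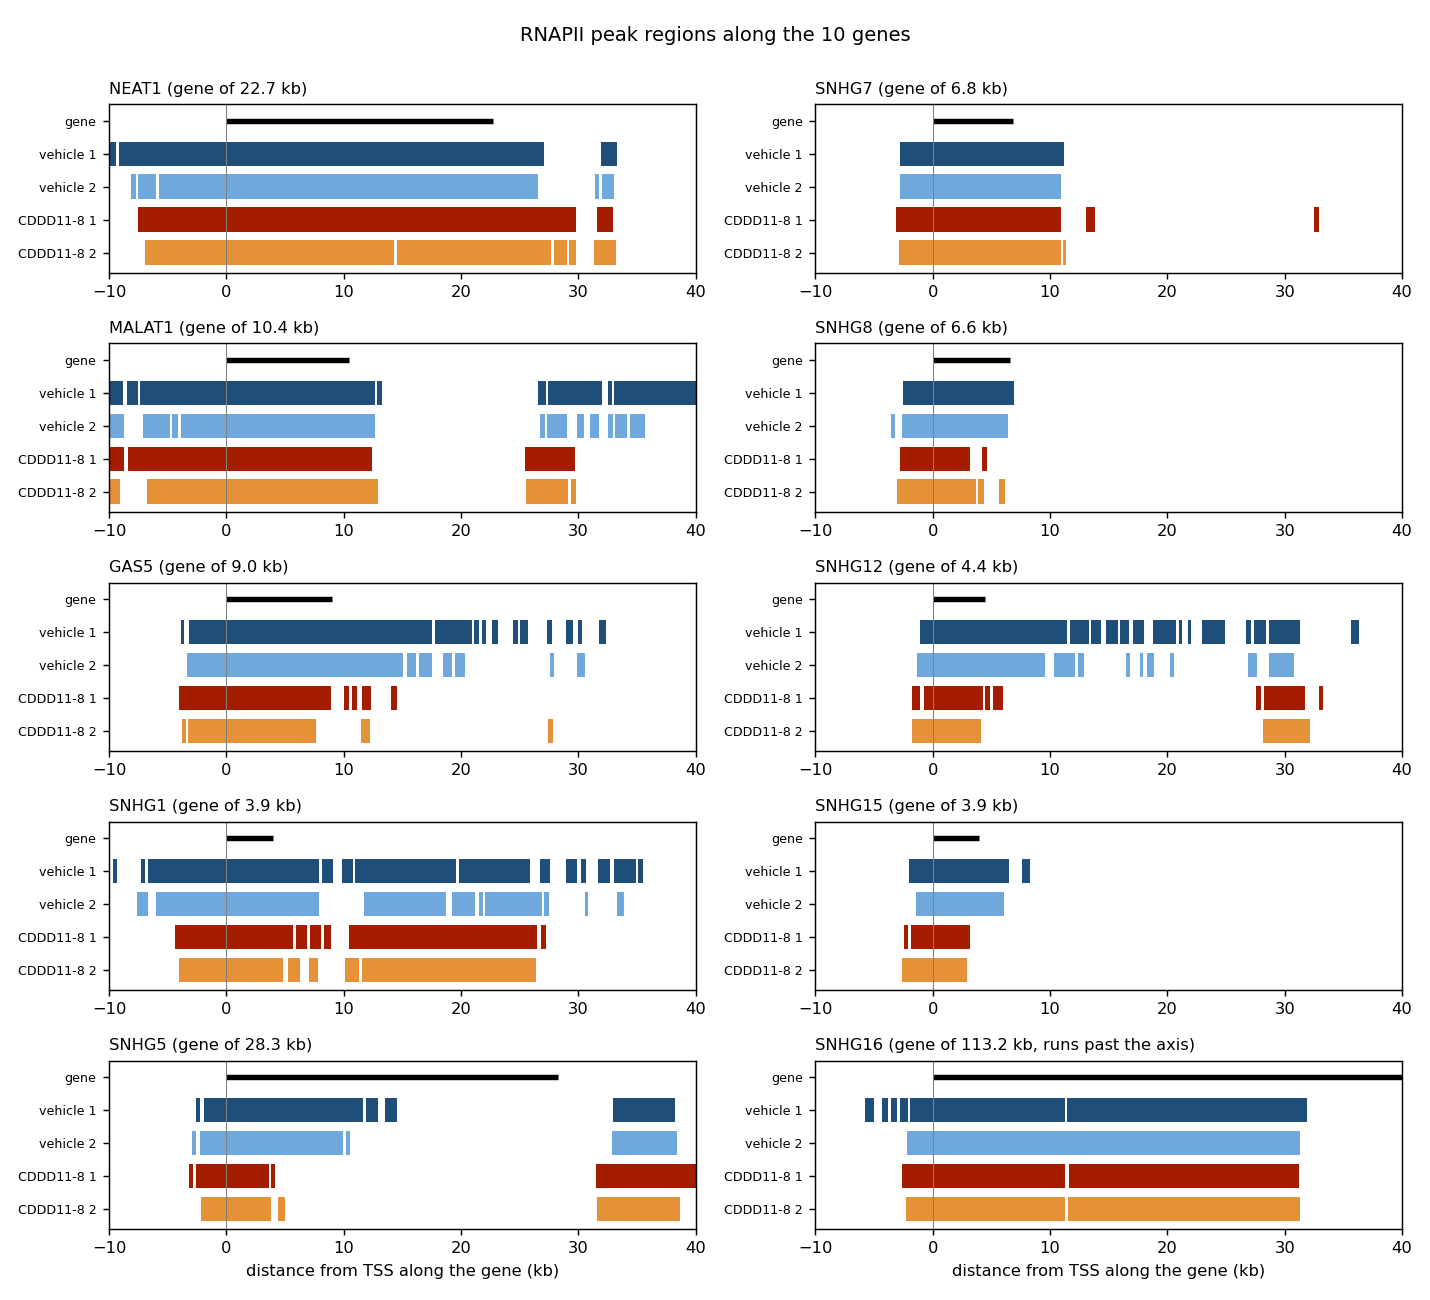
RNAPII peak regions along the 10 genes, by distance from the TSS of the longest isoform in kb (x axis), with 1 row for each library and the gene as a black bar. Bars are regions inside a peak. NEAT1, MALAT1, SNHG7 and SNHG16 were covered over nearly the same stretch in all libraries. The promoter peaks of GAS5, SNHG1, SNHG5, SNHG8, SNHG12 and SNHG15 ended nearer the TSS with CDDD11-8, in SNHG1 at gaps of 191 and 383 bp.

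NEAT1 and MALAT1 stayed covered by RNAPII from end to end. The coverage of NEAT1, the percent of its bases inside a peak from TSS to transcription end site (TES), was 100% with vehicle in both replicates. With CDDD11-8 it was 100% in replicate 1 and 98.9% in replicate 2. MALAT1 was covered to 100% in all 4 libraries. Neither gene was lower with CDDD11-8 by the rule above. Full coverage of a gene this long was seldom kept: of 84 genes of at least 10 kb that were fully covered in both vehicle libraries, 19, or 22.6%, were covered to at least 98% in both CDDD11-8 libraries, and NEAT1 and MALAT1 were 2 of these 19. At 22.7 kb, NEAT1 was the longest of them. The limits of 10 kb and 98% were not planned, and MALAT1 at 10.4 kb and NEAT1 at 98.9% lay just above them. The place of NEAT1 and MALAT1 among the 19 is thus a description and no test. Among genes of any length, 79.3% of 1728 fully covered genes stayed at 100%.

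Of the 8 host genes, 5 had lower gene coverage with CDDD11-8, so that 5 of the 10 genes were lower and 0 higher. Over the 12967 bound genes, 31.7% were lower and 27.6% were higher. A closer background is the 1860 bound genes whose promoter peak was at least 7 kb wide in both vehicle libraries, a width set after the fact so that all 10 genes had it. Of these genes with wide vehicle peaks, 31.7% were lower and 5.97% higher, so that 0 of 10 higher was near their share. The median difference was -6.83 percentage points over the 8 hosts and -0.28 over NEAT1 and MALAT1, against 0 over all genes. When every list was cut to the same number of peaks, 5 of the 10 genes were again lower, the same 5, against 18.4% of all genes.

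SNHG8, the host of SNORA24, was covered to 100% and 96.96% in vehicle and to 54.0% and 71.9% with CDDD11-8. In SNHG5, the host of SNORD50A and SNORD50B, coverage was 48.5% and 36.3% in vehicle and 14.1% and 15.7% with CDDD11-8. SNHG15, the host of SNORA9, was at 100% with vehicle in both replicates and at 80.7% and 73.4% with CDDD11-8. In these 3 genes the treatments lay apart by more than the 2 replicates of either treatment, and the differences were -35.5, -27.5 and -22.9 percentage points in that order.

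GAS5, named for growth arrest and host of the largest set of snoRNAs here, was at 100% in vehicle 1 and 2 and at 99.3% and 85.0% with CDDD11-8. SNHG12 went from 100% in both vehicle libraries to 96.3% and 92.1%. SNHG1 and SNHG7 were covered to 100% in all 4 libraries. The long annotated isoform of SNHG16 was covered to 29.05% and 28.4% in vehicle and to 28.8% and 28.6% with CDDD11-8, so its treatments overlapped. A peak that ends past a short gene covers it in full, as in SNHG1, so the measure depends on the annotated length. On the isoform of median length, gene coverage was lower in 2 of the 10 genes, against 26.3% of all genes, so no excess was left. These 2 were SNHG12 and SNHG15, and GAS5, SNHG5 and SNHG8 were no longer lower.

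**Figure D2:**
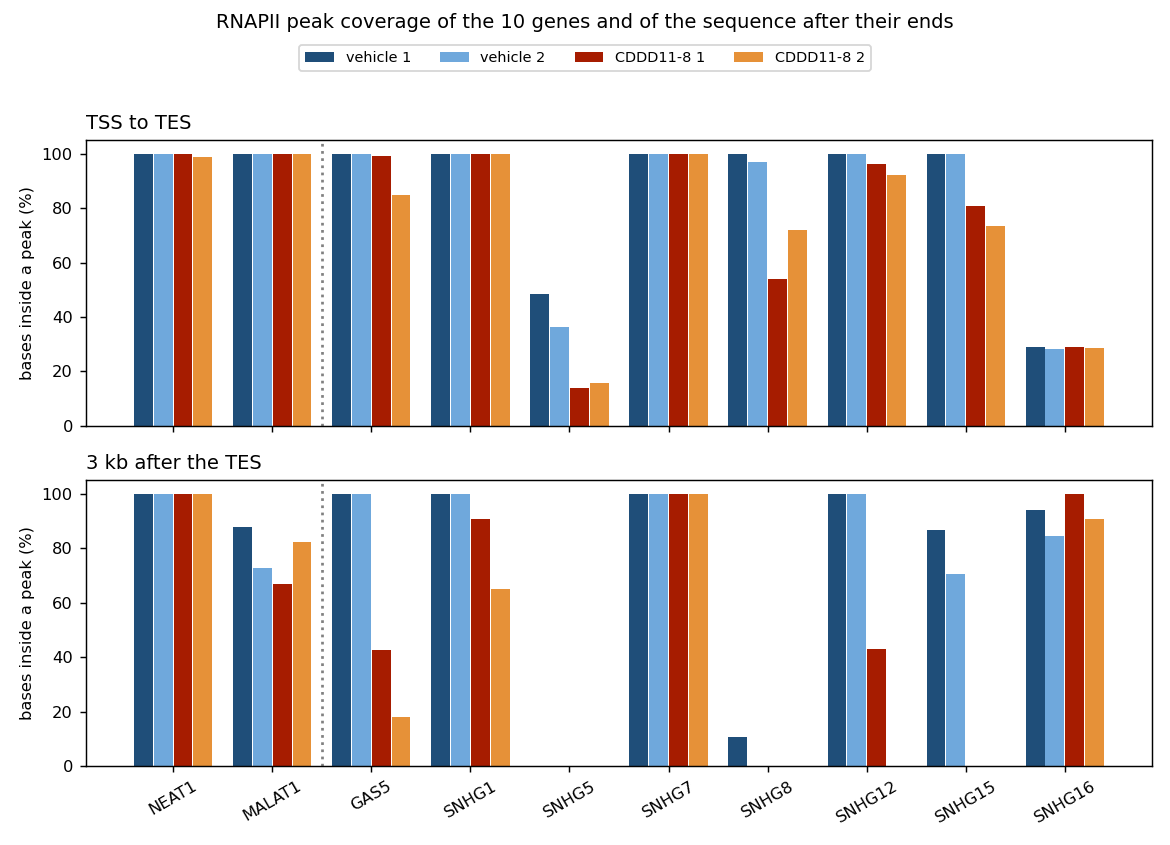
Percent of bases inside an RNAPII peak from TSS to TES (upper panel) and in the 3 kb after the TES (lower panel), for each of the 10 genes, with 1 bar for each library and no error bars. The 3 kb after NEAT1 and SNHG7 were at 100% in all 4 libraries, whereas those after SNHG15 went to 0% in both CDDD11-8 libraries.

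Coverage was also taken past the ends of the genes. In the 3 kb after the TES, 4 of the 10 genes had lower coverage with CDDD11-8, all of them hosts, and 0 were higher, against 31.9% lower and 7.29% higher over all genes and 30.2% and 6.72% among those with wide vehicle peaks. These counts were near the background. SNHG15 was covered there to 86.8% and 70.6% in vehicle and to 0% in both CDDD11-8 libraries. SNHG12 went from 100% in both vehicle libraries to 42.9% and 0%. After GAS5 the coverage was 100% in both vehicle libraries and 42.5% and 18.1% with CDDD11-8.

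SNHG1, the host with the second largest set of snoRNAs, went from 100% in both vehicle libraries to 90.9% and 65.2%. The other hosts did not separate. SNHG7 was at 100% in all 4 libraries. SNHG16 was at 94.1% and 84.7% in vehicle and at 100% and 90.9% with CDDD11-8. SNHG5, whose long isoform ends far from its RNAPII domain, was at 0% throughout, and SNHG8 was at 10.7% in vehicle 1 and at 0% in the other 3 libraries.

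The nuclear genes kept RNAPII past their ends. NEAT1 was covered to 100% after its TES in all 4 libraries. MALAT1 was at 87.7% and 72.7% in vehicle and at 66.8% and 82.3% with CDDD11-8, and its treatments overlapped (exact permutation p = 0.667). The 52.1 kb between the TES of NEAT1 and the TSS of MALAT1 were covered to 48.6% and 38.0% in vehicle and to 51.2% and 46.1% with CDDD11-8. This difference of 5.34 percentage points was within the spread of the vehicle replicates (exact permutation p = 0.667), and it was 0.036 without vehicle replicate 2.

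Distance from the TSS to the downstream end of the promoter peak, here its reach, does not depend on the annotated end of a gene. Reach was lower with CDDD11-8 in 7 of the 8 hosts and in neither NEAT1 nor MALAT1, against 9.97% of the 12967 bound genes. Most genes moved the other way, since 59.2% had a higher reach with CDDD11-8, and the median difference was 0.59 kb over all genes and -4.78 kb over the 8 hosts. Among the 1860 genes with wide vehicle peaks, reach was lower in 37.4% and higher in 26.6%.

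GAS5 had a reach of 17.5 and 15.01 kb in vehicle and of 8.93 and 7.64 kb with CDDD11-8. In SNHG5 it was 11.6 and 9.90 kb in vehicle and 3.63 and 3.83 kb with CDDD11-8. SNHG12 went from 11.4 and 9.55 kb to 4.29 and 4.10 kb. In these 3 genes the CDDD11-8 libraries lay closer to each other than to either vehicle library.

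SNHG8 had a reach of 6.93 and 6.41 kb in vehicle and of 3.21 and 3.71 kb with CDDD11-8. SNHG15 had 6.53 and 6.04 kb in vehicle and 3.17 and 2.88 kb with CDDD11-8. SNHG1 had 7.90 and 7.91 kb in vehicle and 5.71 and 4.84 kb with CDDD11-8. Its CDDD11-8 peaks ended at gaps of 191 and 383 bp, and the next peaks ran to 6.86 and 6.28 kb. In vehicle 1 a gap of 221 bp was followed by a peak to 9.06 kb. With peaks within 1 kb merged, the reach of SNHG1 was no longer lower. With CDDD11-8 the peaks of SNHG5, SNHG8 and SNHG15 thus ended 2.88 to 3.83 kb after the TSS, whatever their reach in vehicle. Over all genes the median reach with CDDD11-8 was 2.48 and 2.22 kb.

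SNHG7 and SNHG16 ended nearly where they did in vehicle. SNHG7 had a reach of 11.2 and 10.9 kb in vehicle and of 10.9 kb in both CDDD11-8 libraries, and its treatments overlapped. The call for SNHG16 rested on vehicle 2, in which 1 peak ran to 31.3 kb. In vehicle 1 and both CDDD11-8 libraries its peak ended at 11.2 to 11.3 kb, and a second peak began 183 to 333 bp later and ran on to 31.3 to 31.9 kb. That stretch overlies ST6GALNAC2, which lies 7602 to 28085 bp after the SNHG16 TSS on the opposite strand, and the domain of SNHG7 overlies the end of DIPK1B, which lies 3442 bp after the SNHG7 TSS on the opposite strand. Their parts in the kept domains were not tested. Without SNHG16, reach was lower in 6 hosts, and these 6 were also the genes with a narrower promoter peak, against 10.5% of all genes and 47.1% of those with wide vehicle peaks. No gene of the 10 had a wider promoter peak, against 63% of all genes and 16.6% of those with wide vehicle peaks.

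**Figure D3:**
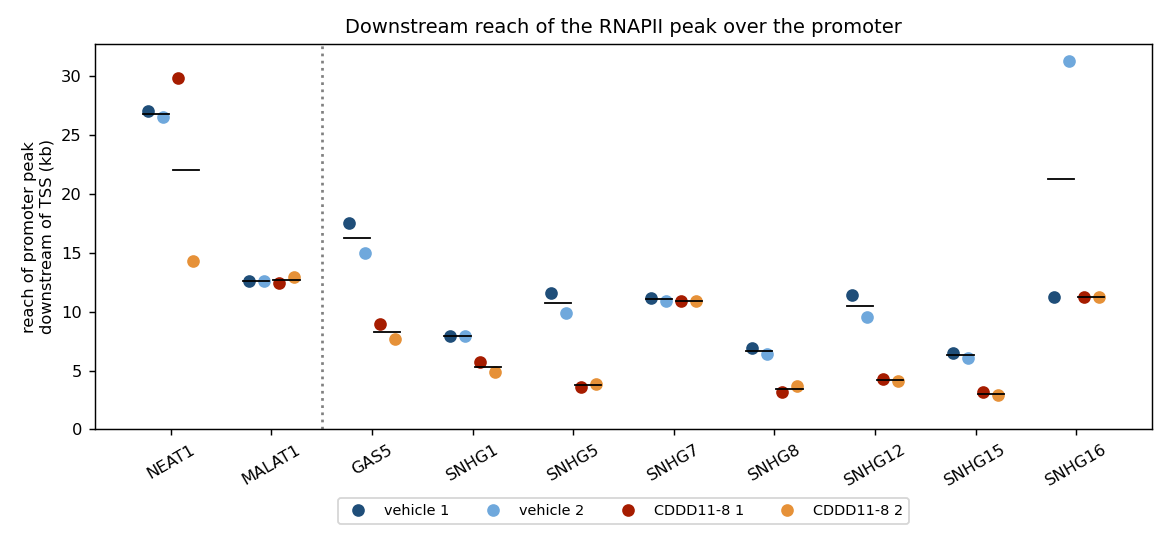
Distance in kb from the TSS to the downstream end of the RNAPII peak over the promoter (y axis) for each of the 10 genes, with 1 point for each library and a line at the mean of 2 replicates. In GAS5, SNHG1, SNHG5, SNHG8, SNHG12 and SNHG15 both CDDD11-8 points sit below both vehicle points, and in NEAT1 a gap of 252 bp puts 1 CDDD11-8 point at 14.3 kb.

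NEAT1 had a reach of 27.1 and 26.5 kb in vehicle, of 29.8 kb in CDDD11-8 replicate 1 and of 14.3 kb in CDDD11-8 replicate 2. In that last library a gap of 252 bp split the domain, and the next peak ran on to 27.7 kb. MALAT1 had a reach of 12.6 kb in both vehicle libraries and of 12.4 and 12.9 kb with CDDD11-8. Upstream of the TSS the domains showed no common change: upstream reach was lower in 1 of the 10 genes, SNHG1, and higher in 3, SNHG7, SNHG8 and SNHG16, against 8.52% lower and 63.8% higher over all genes. Among those with wide vehicle peaks it was lower in 30% and higher in 34.7%, close to the 3 of 10 that were higher here.

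The number of summits in the promoter peak was lower with CDDD11-8 in 7 of the 8 hosts, against 15.7% of all genes and 57.8% of those with wide vehicle peaks. SNHG5 went from 18 and 16 summits to 4 in both CDDD11-8 libraries, and SNHG12 from 20 and 15 to 3 and 7. GAS5 went from 29 and 22 to 16 and 14. SNHG7, the exception among the hosts, had 18 and 20 in vehicle and 16 and 20 with CDDD11-8. MALAT1 was the 1 gene of the 10 with more summits, 23 and 21 in vehicle and 27 and 26 with CDDD11-8, against 20.4% of all genes and 5.11% of those with wide vehicle peaks.

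Although NEAT1 and MALAT1 stayed covered, RNAPII was distributed differently along them. The ratio of the highest summit fold enrichment near the 5′ end (1 kb before to 2 kb after the TSS) to the median summit fold enrichment further downstream (2 to 10 kb after the TSS) was formed within each library, on the log2 scale. It was higher with CDDD11-8 in all 10 genes, against 78.5% of the 4723 genes with a ratio in every library and 73.1% of those with wide vehicle peaks. A higher ratio was therefore found in most genes, and the median difference was 1.60 over the 10 genes and 1.31 over all genes.

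In NEAT1 the log2 ratio was 0.81 and 0.34 in vehicle and 1.99 and 1.84 with CDDD11-8. Its highest summit near the 5′ end had a fold enrichment of 36.7 and 28.2 in vehicle and of 57.2 and 38.8 with CDDD11-8. The median of its downstream summits was 20.9 and 22.3 in vehicle and 14.4 and 10.9 with CDDD11-8. In fold enrichment both parts of the ratio thus differed, with a higher 5′ summit and lower downstream summits. The higher 5′ summit was seen on that scale only, and it compares separately called lists. The highest 5′ pileup of NEAT1 did not separate by treatment, because 342 in CDDD11-8 replicate 1 fell between the vehicle values of 325 and 367.

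In MALAT1 the log2 ratio was 0.24 and 0.47 in vehicle and 1.98 and 1.62 with CDDD11-8. The median downstream summit went from 39.3 and 30.4 to 16.7 and 16.5, and the 5′ summit from 46.3 and 42.1 to 66.0 and 50.6. By pileup the 5′ summit of MALAT1 did not separate either, because both CDDD11-8 values (301.5 and 312.5) fell between the vehicle values of 229 and 338. Near the annotated end of MALAT1 (2 kb before to 1 kb after the TES) the highest summit was 43.0 and 30.4 in vehicle and 17.2 and 10.9 with CDDD11-8. In vehicle RNAPII was thus nearly level along MALAT1, and with CDDD11-8 it declined away from the 5′ end.

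**Figure D4:**
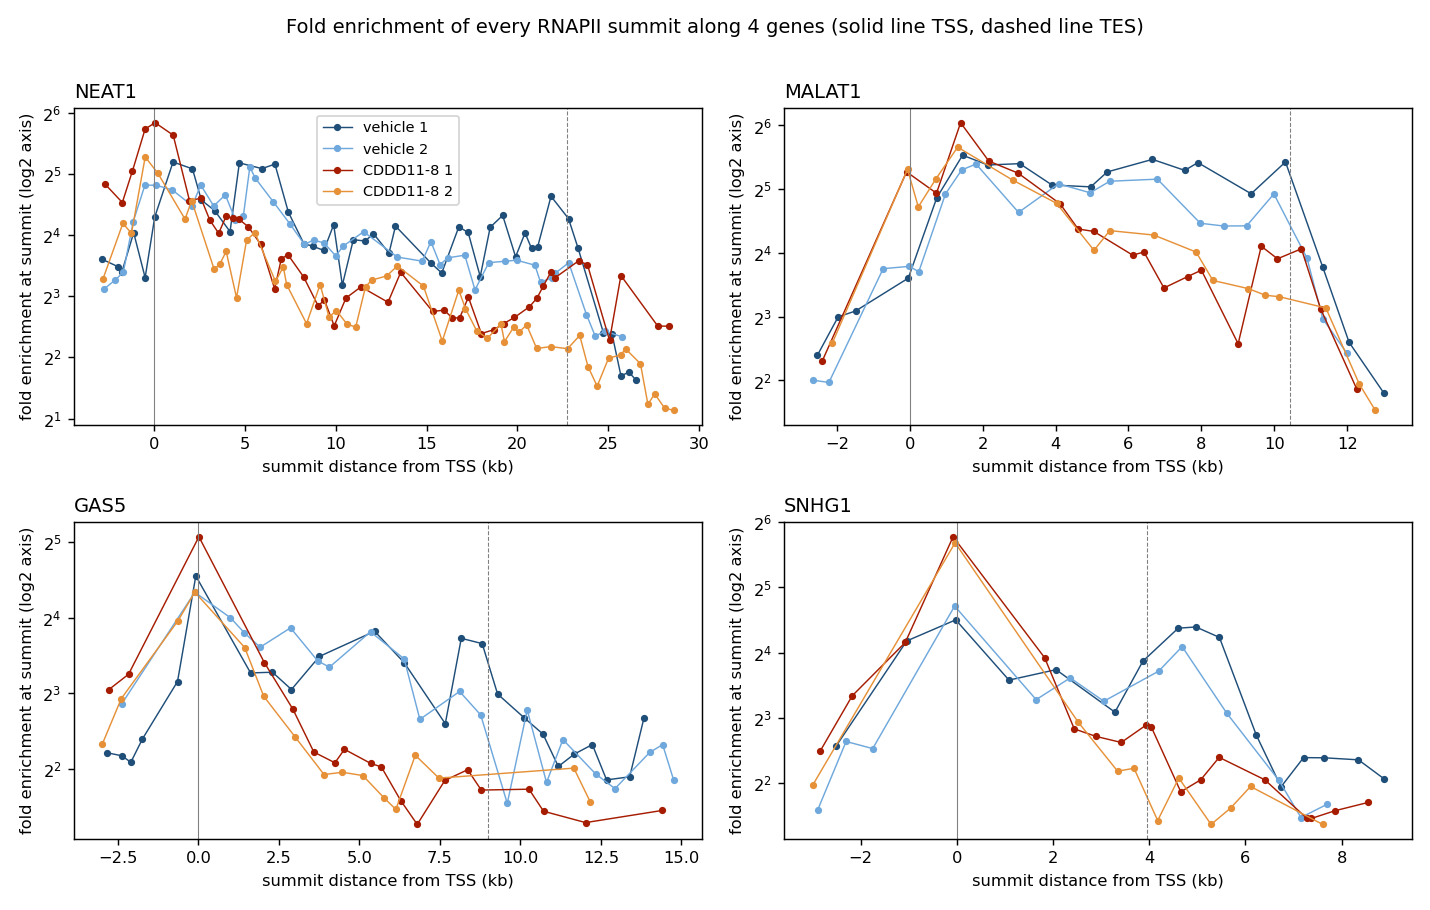
Fold enrichment over local background (y axis, log2 scale) of every RNAPII summit by distance from the TSS in kb (x axis) along NEAT1, MALAT1, GAS5 and SNHG1, with 1 line for each library, a solid grey line at the TSS and a dashed one at the TES. In MALAT1 the median of the downstream summits was 39.3 and 30.4 in vehicle and 16.7 and 16.5 with CDDD11-8.

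The hosts showed the same difference, at higher ratios. Their median log2 ratio was 0.89 and 1.28 with vehicle and 2.88 and 2.81 with CDDD11-8, while over NEAT1 and MALAT1 the medians were 0.52 and 0.41 in vehicle and 1.99 and 1.73 with CDDD11-8. SNHG1 had the highest ratio with CDDD11-8, 3.73 and 3.74, from 1.77 and 1.55 in vehicle. SNHG16 was at -0.50 and -0.25 in vehicle, where its downstream summits outranked the 5′ summit, and at 1.68 and 1.84 with CDDD11-8. In GAS5, SNHG1, SNHG7, SNHG8, SNHG12 and SNHG15, which are shorter than 10 kb, the downstream window runs past the end of the gene. Only listed summits enter the downstream median. With CDDD11-8 it rested on 1 and 2 summits in SNHG15 and on 3 or 4 in SNHG5, SNHG8 and SNHG12. The log2 ratio of SNHG15 was 0.92 and 2.20 in vehicle and 2.99 and 2.28 with CDDD11-8, a narrow separation. No test was made of nuclear genes against hosts, since genes are not replicates of a condition.

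**Figure D5:**
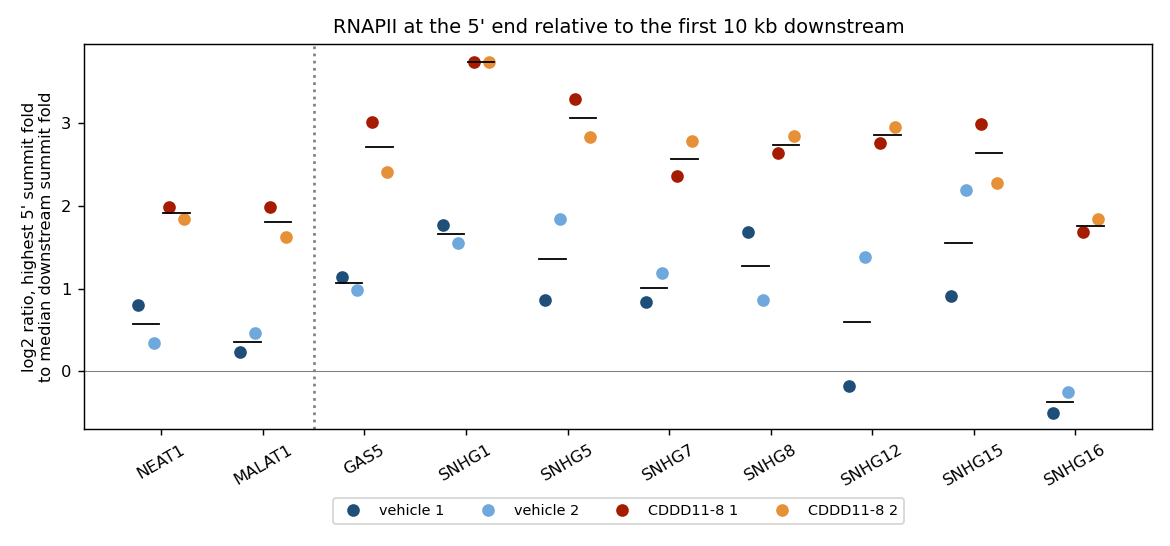
Log2 ratio of the highest summit fold enrichment near the 5′ end to the median summit fold enrichment 2 to 10 kb after the TSS (y axis) for each of the 10 genes, with 1 point for each library and a line at the mean of 2 replicates. Both CDDD11-8 points sit above both vehicle points in all 10 genes.

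The fold enrichment of the promoter peak itself did not rank these genes higher with CDDD11-8. Within each list NEAT1 stood above 99.98% and 99.95% of peaks or level with them in vehicle and above 99.60% and 99.39% with CDDD11-8. MALAT1 stood at the 99.99th percentile in both vehicle libraries and at 99.90 and 99.92 with CDDD11-8. The percentile was lower with CDDD11-8 in 8 of the 10 genes, against 43.8% of all genes and 66.3% of those with wide vehicle peaks. Ranked by pileup it was lower in all 10 genes, against 84.7% of all genes, so a lower rank was common. Over all genes the median percentile was 91.7 and 91.9 in vehicle and 84.3 and 80.8 with CDDD11-8. Among promoter peaks alone it was lower in 7 of the 10 genes, against 23.6% of all genes and 40.2% of those with wide vehicle peaks.

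Ranks among promoter peaks differed most in the hosts. SNHG16 was at the 98.4 and 88.3 percentile of promoter peaks in vehicle and at 47.5 and 63.6 with CDDD11-8. GAS5 was at 98.4 and 96.1 in vehicle and at 71.6 and 63.3 with CDDD11-8. SNHG8 was at 99.4 and 97.5 in vehicle and at 56.4 and 88.3 with CDDD11-8. SNHG1 kept its place, at 98.4 and 98.5 in vehicle and 97.7 and 99.8 with CDDD11-8.

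The fold enrichment itself was not lower. The highest fold enrichment of the promoter peak was higher with CDDD11-8 in 7 of the 10 genes and lower in 0, against 86.6% of all genes higher and 0.995% lower, and 80.5% and 3.33% of those with wide vehicle peaks. The pileup of the same peaks was higher in 4 of the 10 genes and overlapped in 6, against 74.8% higher over all genes and 64.9% of those with wide vehicle peaks. NEAT1 had a pileup of 367 and 325 in vehicle and of 342 and 418 with CDDD11-8, so its treatments overlapped on this scale. Pileups were whole numbers in the vehicle lists and multiples of steps of 0.74 and 0.96 in the CDDD11-8 lists, so those of the 2 treatments are not on 1 scale. In SNHG1 the highest fold enrichment was 22.7 and 26.3 in vehicle and 54.9 and 51.5 with CDDD11-8. In GAS5, whose treatments overlapped, the fold enrichment was 23.4 and 20.2 in vehicle and 33.5 and 20.2 with CDDD11-8. Over all genes the median fold enrichment went from 6.29 and 8.59 in vehicle to 26.9 and 17.6 with CDDD11-8.

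SNHG7 had the highest pileup for its fold enrichment of the 10 genes in each library, by a wide margin in vehicle 1 only. Its pileup was 420 and 349 in vehicle and 378 and 431 with CDDD11-8, the highest of the 10 genes in each library, while its fold enrichment was 6.89 and 16.5 in vehicle. Pileup divided by fold enrichment was 60.97 and 21.1 in vehicle and 12.97 and 18.96 with CDDD11-8, against medians over all genes of 20.3, 9.42, 6.52 and 9.92. The highest pileup and the highest fold enrichment can come from different summits. In vehicle 1 the pileup of 420 lay 72 bp after the TSS and the fold enrichment of 6.89 lay 852 bp after it. The value of 60.97 is thus the background of no single position. The part of local background in the kept domain of SNHG7 was not tested.

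ChIP-seq reads carry no strand, so RNAPII of neighbouring and overlapping genes cannot be told apart from that of the lncRNA. SNHG1 starts 82 bp from SLC3A2, an amino acid transporter subunit that runs the other way, and GAS5 starts 391 bp from ZBTB37 on the opposite strand. GAS5-AS1 lies within GAS5 and TALAM1 within MALAT1, both antisense. SNHG12 overlaps the end of TRNAU1AP, SNHG7 the end of DIPK1B and SNHG8 the end of PRSS12. SNHG5 shares its start region, at 15 bp, with a protein-coding gene model, ENSG00000271793, and SNHG16 starts 123 bp from the antisense lncRNA ENSG00000267546 and contains ST6GALNAC2 and ST6GALNAC1. SNHG15 was the 1 gene of the 10 with no other gene within 3 kb, and it was lower with CDDD11-8 in gene coverage, post-TES coverage, width and reach.

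Of 19 other snoRNA host lncRNAs, 15 were bound in every library. Reach was lower with CDDD11-8 in 9 of these 15 (60%) and higher in 4, against 9.97% and 59.2% of all genes. Gene coverage was lower in 6 (40%) and higher in 1, against 31.7% and 27.6% of all genes, the background for each list that follows. SNHG17 had the largest difference in coverage, from 98.6% and 98.9% in vehicle to 27.3% and 17.3% with CDDD11-8. DANCR went from 98.5% and 100% to 52.7% and 57.0%. Of the protein-coding genes with an annotated snoRNA inside them, 268 of 415 were bound in every library, and reach was lower in 44 (16.4%) and higher in 140 (52.2%) of these. Their gene coverage was lower in 128 (47.8%) and higher in 54 (20.1%). NUCKS1 and UBAP2L had the largest differences, from 100% and 98.6% to 14.3% and 24.9% in NUCKS1 and from 93.7% and 83.1% to 11.8% and 9.52% in UBAP2L.

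Partner proteins of the 2 groups of lncRNA were compared as well. All 14 genes for paraspeckle proteins were bound in every library, and gene coverage was lower with CDDD11-8 in 12 (85.7%) and higher in 1, with a median difference of -43.1 percentage points. EWSR1, an RNA-binding protein of paraspeckles, went from 100% in both vehicle libraries to 33.0% and 25.4%. NEAT1, the RNA scaffold of paraspeckles, was at 100% and 98.9% with CDDD11-8.

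Of 13 genes for snoRNP core and assembly proteins, 12 were bound in every library. Gene coverage was lower in 6 (50%) and higher in 1 of these, against 31.7% and 27.6% of all genes. DKC1, the pseudouridine synthase of H/ACA snoRNPs, went from 72.2% and 79.5% to 25.3% and 20.3%. NOP58, a core protein of C/D snoRNPs, went from 77.8% and 37.3% to 9.14% and 8.02%. Of 10 other abundant lncRNAs, 5 were bound in every library, with gene coverage lower in 2 (40%) and higher in 0. OIP5-AS1 went from 85.6% and 80.7% to 9.33% and 6.96%, and TUG1 from 94.5% and 100% to 83.3% and 84.2%.

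The genes most like each group were sought over 12 values, the gene coverage, post-TES coverage and promoter fold percentile in 4 libraries. The nearest to NEAT1 were the lncRNA ENSG00000290057, which lies 934 bp upstream of it inside the same RNAPII peak, then IER3 (1.35 kb) and SLC35G6 (2.05 kb). In all 162 genes lay within a distance of 5 percentage points of NEAT1. The search was limited to bound genes, of which there were 12967, since only these have all 12 values. The profile was thus shared by a small part of the bound genes and was not unique to NEAT1. The 2 protein-coding genes named are far shorter than NEAT1. The nearest to MALAT1 were PABPN1, the lncRNA ENSG00000268403 and the histone gene H4C3, and 0 genes lay within a distance of 5. The nearest to the median of the 8 hosts were ISG20L2, LRATD2 and PNN at distances of 16.9 to 19.05.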

How the data were processed

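RNAPII ChIP-seq was analysed in 4 libraries of MDA-MB-453 cells, 2 with vehicle and 2 with CDDD11-8. Per the labels and methods, the authors aligned paired-end reads of 150 bp to GRCh37 with Bowtie 2 and called peaks per library with MACS2 against a paired input, without pooling. The 4 inputs have no list of their own here. The deposited pileup is a signal in whole fragments in the vehicle lists and in scaled steps in the CDDD11-8 lists, the deposited fold enrichment is a ratio to local background, and the deposited p-value and q-value are on the −log10 scale (at least 2 for q). The lists give no read counts, so depth is unknown and limits precision in a way that cannot be stated, and longer lists cover more bases.

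Summits sharing a region were joined into 1 peak. Genes came from GENCODE release 44 mapped to GRCh37, and the snoRNAs of each host from RefSeq (names only). Genes were named by rule: the 10 members, annotated neighbours within 3 kb, the 3 genes nearest in profile by Euclidean distance, and the 2 largest falls in coverage per pathway list, of which 1 is not reported here. Members and lists were chosen with earlier results of these data known. Reach, the 5′ to downstream ratio, the wide-peak background, the sequence windows and the median isoform were added after the values were seen. So were the letters TATAA and TATAT, picked from the 10 genes' own start sequences, the use of the longest isoform where starts were equally used (set after a first run; 7 genes held the letters before and after), the 7 kb width, set so that all 10 genes passed, and the luminal and other marker genes. The limits of 10 kb and 98% for long covered genes were not planned either. The motif search used the transcribed strand. Replicates came from separate passages. For single values, an exact permutation test (two-sided) over libraries was used. Measures were tested on simulated peaks. Alternatives changed the q threshold, list length, windows, isoform, merging, rank and libraries. Software was pysam 0.24.0, matplotlib 3.10.9, pandas 2.3.3, numpy 2.4.6, scipy 1.17.1 and Python 3.11.15.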

Additional observations from a re-analysis of the deposited data

How the results depend on the processing

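Counts of genes lower with CDDD11-8 moved by at most 1.5 times under nearly all alternatives. Gene coverage was lower in 2 genes on the isoform of median length, against 26.3% of all genes. Fold rank was lower in 5 genes with equal numbers of peaks, where the difference of SNHG7 turned to 0.38 percentile points; the cause was not tested. Restricting to genes at least 1 kb long and 3 kb from others left 1 gene, SNHG15, which was lower in gene coverage, post-TES coverage, fold rank and width, a count of 1 each. The Ensembl canonical isoform is the longest one in all 10 genes. With each library left out in turn, the counts ranged from 5 to 6 for gene coverage, against 33% to 43.1% of all genes. They ranged from 4 to 6 for post-TES coverage, 8 to 10 for fold rank, 6 to 7 for width and 7 to 8 for summits and for reach. For the 5′ to downstream ratio the count stayed at 10, against 81.3% to 89.8% of genes with a ratio. Leaving out a library loosens the rule, so these counts could not fall. The treatment difference in coverage of the interval between NEAT1 and MALAT1 ranged from 0.036 to 10.6 percentage points. Of 632 differences of single genes, 569 moved by no more than the larger replicate SD, 62 moved by more without a change of sign in a separated value, and 1 changed sign.

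No pairing of libraries by replicate number was visible across genes. Deviations of same-numbered libraries from their group means correlated at -0.038 for gene coverage, -0.076 for post-TES coverage, -0.080 for fold rank and -0.024 for width. These values cannot decide whether same-numbered libraries shared a passage, so counts were also made within replicate numbers. With the replicate number as a block, genes lower in both pairs were counted, a looser rule under which counts could not fall. The count was 5 for gene coverage, against 36.1% of all genes. It was 4 for post-TES coverage, 9 for fold rank, 6 for width, 8 for summits and 7 for reach. Reach and width depend on the gap at which the caller ends a peak. With peaks within 1 kb merged, reach was lower in 6 genes, without SNHG1, and gene coverage in 4, without SNHG12. The 6 still held SNHG16, by a very small margin. Its merged peak ended at 31.936 and 31.311 kb in vehicle and at 31.256 and 31.295 kb with CDDD11-8. With 2 libraries a treatment and no read totals, differences smaller than the replicate spread were not detectable.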
